A study of Mus musculus with 56 samples.

Results

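The 10 genes Vps16, Itpa, Ap5s1, Gaa, Trim12a, Thumpd1, Tomm22, Clic4, B4galt3 and Serpina3f were followed mouse by mouse through lung, liver and forestomach. They are 10 of 20018 genes that could be named on the array and are read by 16 of its 55681 probes. They were chosen from these arrays because each has a probe on which the deviation of a mouse from the mean of its dose group was closely correlated between lung and liver. Agreement between lung and liver, and the separate levels at which mice lay in those tissues, are therefore given as description and carry no test. The rule used no forestomach value, and the tests on agreement rest on the forestomach arrays.

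The animals were male MutaMouse mice, about 14 weeks old and housed singly, a transgenic strain that carries a bacterial lacZ reporter for mutation in every tissue and in every group. For 28 days each received a daily gavage of olive oil, alone in D0 and carrying the polycyclic aromatic hydrocarbon chrysene in the other groups. The daily dose per kg body weight was 17.5 mg in D1, 50 mg in D2 and 150 mg in D3, and tissues were collected 72 h after the final gavage. Mice 1 to 5 were D0, mice 6 to 10 D1, mice 11, 12, 13 and 15 D2, and mice 16 to 20 D3. Mouse 11 had no lung array, so there were 18 lung, 19 liver and 19 forestomach arrays, 56 in all, and 18 mice had all 3 tissues. Each array compared sample RNA in Cy5 with a universal mouse reference RNA from cultured cell lines in Cy3, and every value below is the deposited log2 ratio of sample over reference unless another quantity is named. The dyes were not swapped, so a ratio orders mice on 1 probe but does not compare probes or genes. In bulk tissue, fewer cells of a type and less RNA per cell cannot be told apart.

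Several of the genes serve the endosome and lysosome. Vps16 is a core subunit of the tethering complexes that bring membranes to endosomes and lysosomes, Ap5s1 is a subunit of an adaptor complex of late endosomes, and Gaa is the acid alpha-glucosidase that breaks down glycogen in the lysosome. Itpa clears deaminated purine nucleotides, Tomm22 is a receptor of the import channel in the mitochondrial outer membrane, Thumpd1 binds tRNA and assists its acetylation, B4galt3 adds galactose to glycans in the Golgi, Clic4 is an intracellular chloride channel family protein, Trim12a belongs to the Trim5-like tripartite motif proteins, and Serpina3f belongs to an expanded cluster of serine protease inhibitors.

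The arrays differed in brightness. The scanner's flag for a Cy5 signal well above background was set for 47.6% to 55.3% of spots in lung, 33.3% to 45.2% in liver and 18.2% to 50.2% in forestomach, where mouse 4 was the dimmest. The defining markers of each tissue were high in it, with the mean ratio of lung epithelium markers at 6.95 to 7.81 in lung, of hepatocytes at 6.68 to 7.35 in liver and of keratinocytes at 3.65 to 6.13 in forestomach. Markers of glandular stomach, which the forestomach adjoins, ran from 0.37 to 6.87 over the forestomach arrays. Markers of other cell types stood out on single arrays. In the lung of mouse 19, skeletal muscle markers read 5.58 and keratinocyte markers 4.81, where the lung medians were -0.59 and -0.44, and in forestomach the pancreatic acinar markers reached 5.12 in mouse 19 and the hepatocyte markers 3.78 in mouse 2. Without mice 17 and 19, 6 member probes passed the forestomach test described below, against 0.128% of all probes. To see whether arrays were matched to their animals, the 44 other probes with a lung to liver correlation above 0.9 were used, and on these all 19 forestomach arrays resembled the other tissues of their own mouse most. On the 16 member probes this held for 14 of 19 forestomach arrays.

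Vps16, Itpa and Ap5s1 lie on chromosome 2, with Vps16 and Itpa 9 protein-coding genes apart and Itpa and Ap5s1 12 apart. The 250 bases upstream of their RefSeq starts (GRCm38.p6) are shown because these genes neighbour each other and the first pair moved together, with Gaa, whose forestomach values also followed the mouse, beside them. The motifs searched on both strands were GCGTG (also read as CACGC, the core bound by the aryl hydrocarbon receptor) and the E-box CACGTG, and capitals mark each match.
Vps16, chr2:130424070-130424319, plus strand: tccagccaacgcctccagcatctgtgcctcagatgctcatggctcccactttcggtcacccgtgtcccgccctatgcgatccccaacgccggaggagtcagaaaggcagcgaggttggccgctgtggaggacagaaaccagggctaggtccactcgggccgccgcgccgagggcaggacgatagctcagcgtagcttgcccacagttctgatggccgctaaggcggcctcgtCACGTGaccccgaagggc
Itpa, chr2:130667552-130667801, plus strand: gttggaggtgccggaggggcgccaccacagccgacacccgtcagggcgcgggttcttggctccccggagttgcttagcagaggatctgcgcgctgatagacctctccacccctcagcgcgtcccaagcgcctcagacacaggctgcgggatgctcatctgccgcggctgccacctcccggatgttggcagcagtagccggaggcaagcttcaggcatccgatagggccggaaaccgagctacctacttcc
Ap5s1, chr2:131210110-131210359, plus strand: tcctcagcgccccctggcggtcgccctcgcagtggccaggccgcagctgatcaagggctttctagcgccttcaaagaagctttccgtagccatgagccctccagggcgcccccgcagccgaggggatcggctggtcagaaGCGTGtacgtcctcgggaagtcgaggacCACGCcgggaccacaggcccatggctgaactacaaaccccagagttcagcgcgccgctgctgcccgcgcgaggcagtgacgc
Gaa, chr11:119267713-119267962, plus strand: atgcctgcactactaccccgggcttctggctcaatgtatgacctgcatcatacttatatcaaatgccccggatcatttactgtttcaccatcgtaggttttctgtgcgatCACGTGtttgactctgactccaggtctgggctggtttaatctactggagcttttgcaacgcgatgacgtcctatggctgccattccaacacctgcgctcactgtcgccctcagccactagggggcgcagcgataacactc
Vps16 and Gaa each held 1 CACGTG, Ap5s1 held 2 GCGTG matches, and these letters did not occur in the Itpa window. All 10 genes matched a RefSeq promoter, GCGTG was found for 3 of them and CACGTG for 2, against 28.2% and 6.02% of 32851 promoters of the same length. A match describes the letters of the window and not binding.

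Gaps between sets of mice are given over the 18 mice with all 3 tissues, and mouse 11 is placed separately for some of the genes. Vps16 showed the widest spread of these neighbours. In lung its log2 ratios in order of mouse number were -4.57, -0.24, -0.01, -1.01 and -0.95 in D0, then -1.01, -1.25, -0.07, -0.11 and -4.71 in D1, then -4.63, 0.09 and -0.03 in D2, then -0.86, -0.13, 0.04, -0.05 and -1.02 in D3. In liver they were -3.21, -0.36, -0.24, -0.92 and -1.11 in D0, then -1.01, -1.20, -0.21, -0.32 and -2.90 in D1, then -2.98, -3.08, -0.28 and -0.23 in D2, then -0.84, -0.25, -0.18, -0.25 and -1.06 in D3. In forestomach they were -2.25, -0.20, 0.09, 0.09 and -0.95 in D0, then -0.97, -0.84, -0.16, -0.01 and -4.91 in D1, then -3.03, -4.77, 0.22 and 0.10 in D2, then -0.71, 0.07, 0.10, 0.03 and -0.79 in D3. Mice 1, 10 and 12 lay lowest of the 18 in each tissue, separated from the next by 3.32 in lung, 1.70 in liver and 1.28 in forestomach. Mouse 11, with no lung array, lay among them in liver (-2.98) and forestomach (-3.03). Above that gap, 6 mice (4, 5, 6, 7, 16 and 20) lay between -1.25 and -0.86 in lung, and the other 9 between -0.24 and 0.09. Mouse 4 was in the middle set in lung and liver but read 0.09 in forestomach, on the dimmest array. The probe was well above background on 18 of 18 lung, 19 of 19 liver and 17 of 19 forestomach arrays.

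Itpa was ordered almost as Vps16 was. Its lung log2 ratios were -2.21, -0.30, -0.23, -1.14 and -0.91 in D0, then -1.03, -0.89, -0.09, -0.15 and -1.90 in D1, then -1.87, -0.33 and -0.28 in D2, then -0.90, -0.22, -0.19, -0.35 and -0.84 in D3. The same mice 1, 10 and 12 were lowest, 0.74 below the next mouse in lung and 0.49 below it in liver, where mouse 11 (-0.97) lay near them. In forestomach, mice 10 and 12 were again lowest at -1.81 and -1.68, whereas mouse 1 read -0.24, above mouse 20 at -0.40. Over the mean deviations in the 3 tissues the Pearson correlation of Itpa with Vps16 was 0.97 in 18 mice, a description that mostly records which mice lay at which level.

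Ap5s1 had another order. Its lung log2 ratios were -0.25, -0.39, -0.82, -0.92 and -0.10 in D0, then -0.83, -0.97, -0.97, -2.31 and -0.01 in D1, then -0.13, -0.94 and -2.25 in D2, then -0.88, -1.95, -2.28, -0.87 and -0.77 in D3. Mice 9, 15, 17 and 18 lay below the other 14, by 0.98 in lung and by 0.29 in liver. The mice low for Vps16 were among the highest for Ap5s1, with mice 1, 10 and 12 between -0.25 and -0.01 in lung, and the correlation over 18 mice was -0.70 with both Vps16 and Itpa. In forestomach the gap was absent, since mice 6 and 16 (-1.38 and -1.37) read below all 4 of the low mice.

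Gaa fell on 3 levels. On probe A_55_P2024431 the lung log2 ratios were -0.60, -1.84, 0.34, 0.20 and -1.43 in D0, then -0.57, -1.71, -1.81, -0.42 and -1.52 in D1, then -0.46, -0.54 and 0.18 in D2, then -0.38, -1.82, -0.37, -1.78 and 0.33 in D3. Mice 3, 4, 15 and 20 were highest, 0.55 above the next in lung and 0.45 in liver, and mice 2, 5, 7, 8, 10, 17 and 19 were lowest, 0.83 and 0.68 below the next. Mouse 11 lay near the lowest set in liver (-1.27). The lower gap narrowed to 0.02 in forestomach, and the upper one closed there, with mouse 15 at -0.97 and mouse 13 at -0.92. The second Gaa probe, A_55_P2024439, was dim and ranged only from -1.66 to -0.77 in lung.

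Trim12a was either clearly measured or near background. Probe A_52_P267391 gave lung log2 ratios of 3.37, 3.70, 4.52, 3.50 and -0.60 in D0, then 3.62, 3.68, -0.58, -0.32 and -0.56 in D1, then -0.79, -0.77 and -0.41 in D2, then -0.40, 4.36, -0.40, 3.78 and 3.42 in D3. Mice 1, 2, 3, 4, 6, 7, 17, 19 and 20 lay above the others by 3.69 in lung, 2.02 in liver and 0.36 in forestomach, and mouse 11 was with them in liver (1.79) and forestomach (1.38). The probe was well above background in exactly 9 of 18 lung arrays and 10 of 19 liver arrays, and in 7 of 19 forestomach arrays. No value of a low mouse was well above background, so the size of the gap is bounded by the floor of the array. A second probe, A_55_P2064659, ranged from -0.29 to 2.37 in lung, and the correlation of its deviations between lung and liver was 0.92. Trim12a has close relatives, among them Trim34a and Trim12c, and whether their transcripts bind these probes was not tested.

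Thumpd1 likewise split the mice on 1 of its probes. On A_55_P1995698 the lung log2 ratios were -3.75, -4.02, -3.44, -0.15 and -3.73 in D0, then -4.07, -3.97, -0.30, -3.64 and -0.21 in D1, then 0.89, -3.81 and -0.12 in D2, then -3.66, -0.24, -0.14, -0.12 and -0.07 in D3. Mice 4, 8, 10, 12, 15, 17, 18, 19 and 20 lay above the other 9 by 3.14 in lung, 1.25 in liver and 0.77 in forestomach, and mouse 11 lay with them in liver (-0.22) and forestomach (0.059). The other 9 mice were not well above background in lung or forestomach, and 1 of them was in liver. The second probe, A_55_P1985895, was well above background on every array of all 3 tissues and stayed between -0.69 and -0.30 in lung, with a lung to liver correlation of 0.13. The 2 probes of Thumpd1 thus disagreed on the same arrays.

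Tomm22 stood high in 5 mice. Its lung log2 ratios were -1.12, 0.56, 0.46, 0.86 and -0.93 in D0, then -1.18, -1.19, -1.13, -1.28 and -1.17 in D1, then -1.20, -1.17 and 0.73 in D2, then -1.13, -1.16, 0.72, -1.17 and -1.03 in D3. Mice 2, 3, 4, 15 and 18 lay above the others by 1.39 in lung and 0.78 in liver. In forestomach mouse 3 read 0.07, just below mouse 1 at 0.11, while the remaining 4 lay between 0.24 and 1.28.

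Clic4 stood high in 8 mice on probe A_51_P127681. Its lung log2 ratios were 0.39, 2.27, 0.20, 1.81 and 0.04 in D0, then 0.19, 0.45, 2.13, 0.26 and -0.07 in D1, then 0.19, 1.93 and 0.06 in D2, then 1.93, 1.22, 1.88, 1.12 and 0.23 in D3. Mice 2, 4, 8, 13, 16, 17, 18 and 19 lay above the others by 0.68 in lung, 0.66 in liver and 0.41 in forestomach. This split held in all 3 tissues, but the order of mice within the high set did not. The dimmer probe A_55_P2021530 ranged from -0.37 to 0.30 in lung, with a lung to liver correlation of 0.54.

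B4galt3 was low in mice 5 and 20 on probe A_55_P2184364. Its lung log2 ratios were 1.72, 0.70, 1.28, 1.67 and -0.42 in D0, then 0.98, 1.56, 1.56, 1.79 and 1.51 in D1, then 0.72, 1.71 and 1.08 in D2, then 1.25, 1.33, 1.68, 0.64 and -0.62 in D3. These 2 mice lay below the other 16 by 1.06 in lung, 0.70 in liver and 0.44 in forestomach. Probe A_55_P2137203 of the same gene was brighter in lung, ranged from 0.05 to 0.61 there and had a lung to liver correlation of -0.19.

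Serpina3f had large differences in lung and liver and almost no signal in forestomach. On probe A_55_P2142226 the lung log2 ratios were -1.12, -1.12, -0.84, -1.01 and 4.18 in D0, then 3.47, 3.71, 2.65, -1.01 and 2.76 in D1, then 2.81, -1.13 and -1.07 in D2, then 3.78, 2.41, 2.50, 3.07 and 3.17 in D3. The liver log2 ratios were -1.16, -0.87, -0.91, -0.75 and 2.00 in D0, then 2.20, 1.90, 1.16, -0.37 and 1.10 in D1, then 1.06, 1.09, -0.96 and -0.69 in D2, then 2.08, 1.17, 1.01, 1.84 and 1.17 in D3. Of the 18 mice, mice 5, 6, 7, 8, 10, 12, 16, 17, 18, 19 and 20 lay above the others by 3.25 in lung and 1.38 in liver, and mouse 11 lay with them in liver (1.06). Of the 7 low mice, 5 were well above background in lung and only 2 in liver, so the liver gap is bounded by the floor of the array. In forestomach the ratios ran from -1.65 to -0.27 and only 4 of 19 arrays were well above background, so the order of mice could not be read there. The Serpina3 genes are close in sequence and binding of their transcripts to this probe was not tested. The other probe, A_55_P2104975, was not well above background on any of 19 forestomach arrays and had a lung to liver correlation of -0.31.

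**Figure D1:**
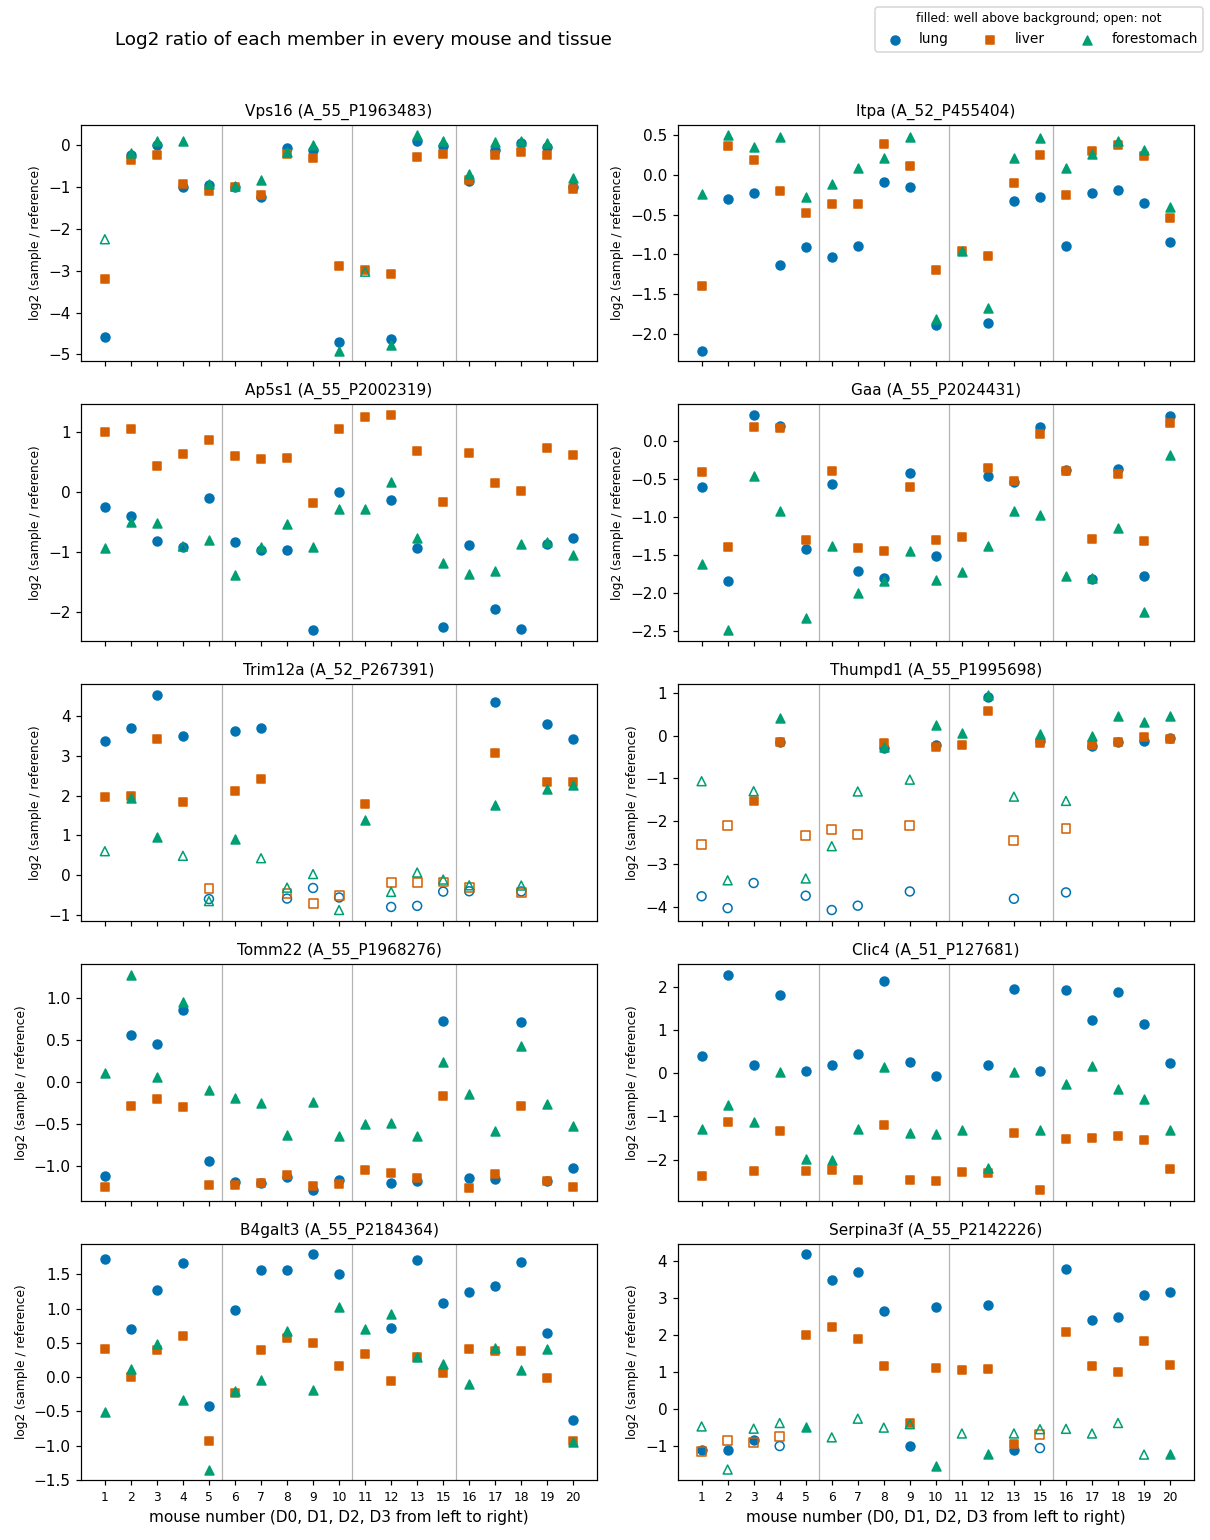
Log2 ratio of sample over reference (y axis) by mouse number in dose order (x axis) for the varying probe of each of the 10 genes in lung, liver and forestomach, with open symbols where Cy5 was not well above background and grey lines between dose groups. Vps16 is low in mice 1, 10 and 12 in all 3 tissues and in mouse 11 in liver and forestomach, whereas Serpina3f separates the mice in lung and liver but stays between -1.65 and -0.27 in forestomach.

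These spreads belong to the choice of the genes. The lung to liver correlation of the 10 varying probes was 0.95 to 0.98 over 18 mice, ranks 1 to 13 among 23440 probes, whose median was 0.089, and 55 probes (0.235%) exceeded 0.9. For the 10 varying probes the SD of centred log2 intensity across lung arrays was 0.57 to 1.89 in Cy5 and 0.08 to 0.34 in Cy3, the reference. In forestomach, where arrays differed in overall brightness, the ratio did not follow the Cy5 intensity on all of these probes, with correlations over 19 arrays of 0.97 for Trim12a A_52_P267391, 0.63 for Thumpd1 A_55_P1995698 and 0.53 for Vps16, but of 0.026 for Gaa A_55_P2024431, -0.16 for Clic4 A_51_P127681 and -0.20 for Itpa. Each gene set apart different mice, except that Vps16 and Itpa shared their 3 lowest of the 18 mice in lung and liver. In forestomach mouse 1 was not among the 3 lowest for Itpa. Ap5s1 ran against both genes, with a correlation of -0.70 with each over 18 mice.

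The forestomach was then used to ask whether a mouse that deviated in lung and liver deviated equally there. For each probe the forestomach deviation from the dose-group mean was regressed on the mean lung and liver deviation of the same mouse, with 19 mice (liver alone for mouse 11), limma variance moderation and Benjamini-Hochberg adjustment over 27541 probes. A slope of 1 means a deviation of equal size and 0 none. Of 15 member probes tested, 6 probes of 6 genes had a slope above 0 at an adjusted p of at most 0.05, against 0.251% of all probes (0.0327% had a slope below 0), and 14 of 15 slopes were above 0 with a median of 0.57. At an unadjusted p of at most 0.05, 11 of the 15 passed, against 4.94% of all probes. The varying probes were chosen on lung and liver and spread widely there. The SD of their lung deviations ran from 0.64 (Itpa) to 1.86 (Trim12a A_52_P267391), against a median of 0.139 over probes. A wider predictor narrows the SE of a slope, so the shares of all probes are not a like comparison.

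Vps16 followed with a slope of 1.08 ± 0.092 (SE, adjusted p = 2.4e-05), Itpa with 0.93 ± 0.16 (adjusted p = 0.0140) and Clic4 A_51_P127681 with 0.91 ± 0.15 (adjusted p = 0.0155). Each of these intervals of 1 SE reached the line of equal deviation. Gaa A_55_P2024431 had a slope of 0.81 ± 0.11 (adjusted p = 0.0034), Thumpd1 A_55_P1995698 of 0.69 ± 0.11 (adjusted p = 0.0138) and Trim12a A_52_P267391 of 0.48 ± 0.074 (adjusted p = 0.0084). The Trim12a and Thumpd1 values include mice not well above background in all 3 tissues.

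The other members did not pass. Tomm22 had a slope of 0.57 ± 0.13 (adjusted p = 0.10), Ap5s1 of 0.35 ± 0.15 (adjusted p = 0.596), B4galt3 A_55_P2184364 of 0.51 ± 0.21 (adjusted p = 0.572) and Trim12a A_55_P2064659 of 0.29 ± 0.11 (adjusted p = 0.506). Serpina3f A_55_P2142226 had a slope of -0.03 ± 0.08 (adjusted p = 0.979) on forestomach signals near background. The second probes had wide errors, with Clic4 A_55_P2021530 at 0.60 ± 0.28, Gaa A_55_P2024439 at 0.66 ± 0.54, Thumpd1 A_55_P1985895 at 0.18 ± 0.83 and B4galt3 A_55_P2137203 at 0.56 ± 1.31. The call of Clic4 was lost without mouse 8 (adjusted p = 0.101) or 13 (0.0694), that of Itpa without mouse 10 (0.0587) or 12 (0.0536) and that of Thumpd1 without mouse 4 (0.0617), whereas Tomm22 passed without mouse 3 (0.0141).

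**Figure D2:**
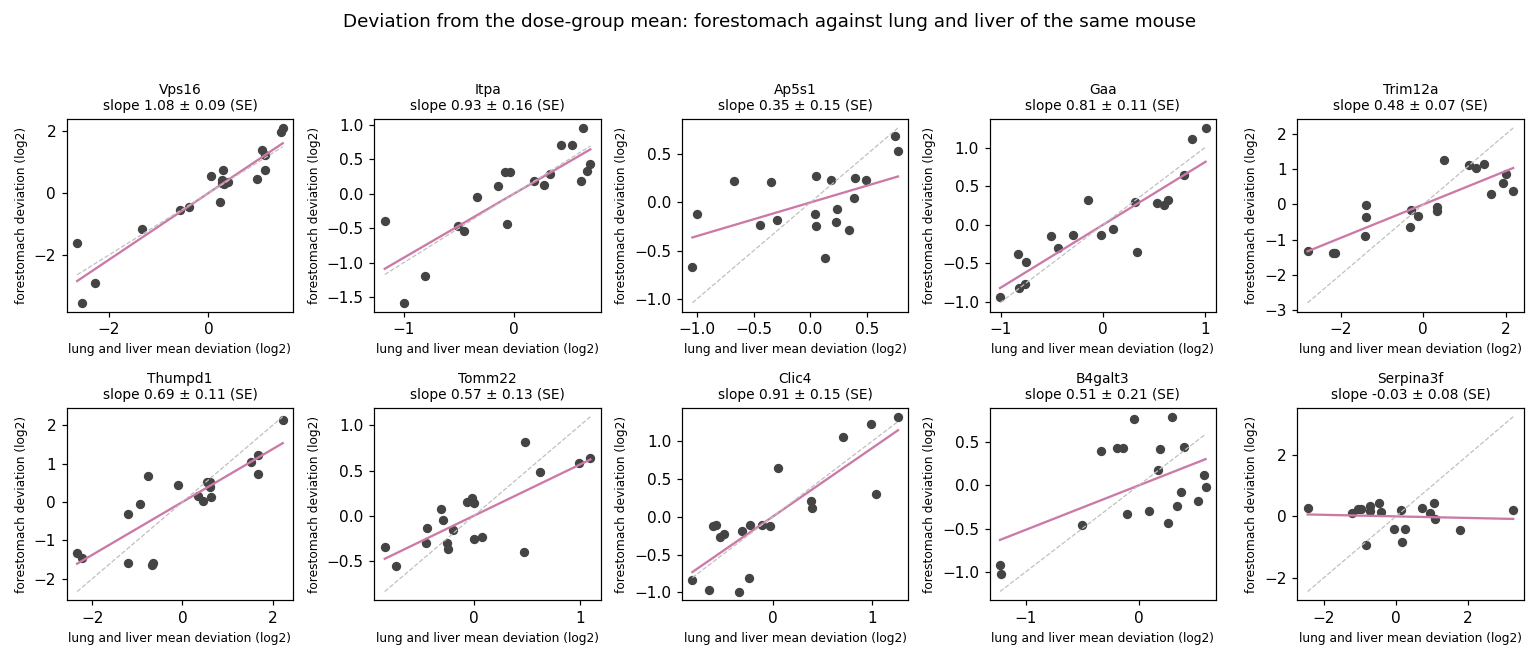
Forestomach deviation from the dose-group mean (y axis, log2) against the mean lung and liver deviation of the same mouse (x axis, log2), where points are mice, the pink line is the fitted slope and the dashed line is equality. Vps16 (slope 1.08) lies along equality, Trim12a (0.48) is flatter and Serpina3f (-0.03) is level.

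Forestomach arrays on different slides differed in brightness, and the slide was therefore added to the model. Clic4 (0.82, adjusted p = 0.0484), Gaa (0.74, adjusted p = 0.0244) and Thumpd1 A_55_P1995698 (0.77, adjusted p = 0.0201) still passed. Vps16 (0.88, adjusted p = 0.0628), Trim12a (0.51, adjusted p = 0.0918) and Itpa (0.70, adjusted p = 0.547) did not, and 3 probes passed in all against 0.105% of the whole table. When arrays were median-centred instead of LOWESS-normalised, no member probe and 0% of all probes passed (5 member probes at an unadjusted p of 0.05, against 1.06% of all), with slopes of 0.63 for Vps16, 0.78 for Thumpd1 A_55_P1995698, 0.39 for Trim12a A_52_P267391, 0.31 for Clic4 A_51_P127681, 0.062 for Itpa and -0.020 for Gaa A_55_P2024431, whose direction turned. Some marker lists, each taken as a mean ratio, moved with the called probes over the 19 forestomach arrays. With the T cell markers the correlation was 0.66 for Itpa, 0.56 for Vps16 and 0.54 for Clic4 A_51_P127681, and with the B cell markers it was 0.70, 0.60 and 0.66. Only 1 of the 4 B cell probes and 3 of the 4 T cell probes were well above background on at least 3 forestomach arrays, and both lists read highest on the dimmest array, that of mouse 4. With the clock output genes the correlation was 0.50 for Itpa, 0.48 for Vps16 and -0.51 for Trim12a A_52_P267391. It was 0.57 between the macrophage markers and Gaa A_55_P2024431, -0.62 between the keratinocyte markers and Clic4 A_51_P127681, -0.56 between the skeletal muscle markers and Itpa and -0.49 between the lung epithelium markers and Thumpd1 A_55_P1995698. Over the lung arrays, the predictor side of the slope, the erythroid markers correlated with Vps16 and Itpa at 0.67 each. Gaa A_55_P2024431 correlated in lung with the clock output genes at 0.61 and with the hepatocyte, skeletal muscle and keratinocyte markers at -0.60, -0.59 and -0.58. Over the liver arrays the clock output genes correlated with Vps16 at 0.62 and with Itpa at 0.60, and the hepatocyte markers with Itpa at -0.58. Their part in the result was not tested.

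**Figure D3:**
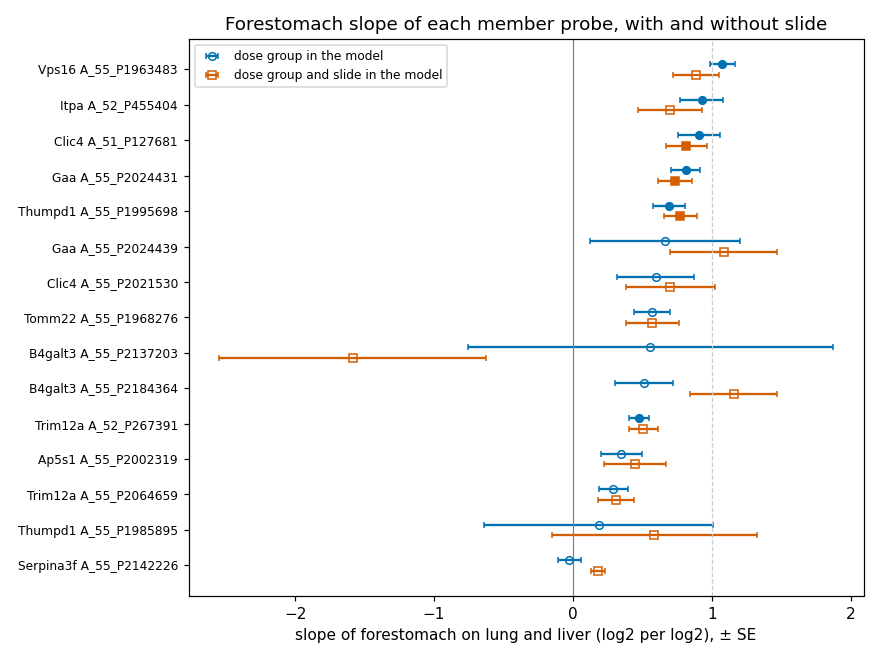
Forestomach slope per member probe (x axis, log2 per log2, error bars SE) without and with the slide in the model, where filled symbols have an adjusted p of at most 0.05 and the dashed line marks a slope of 1. Clic4, Gaa and Thumpd1 A_55_P1995698 stay filled with the slide, and Vps16, Itpa and Trim12a do not.

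Several of the genes whose levels were most like a member's lay near it on the chromosome. Likeness was the Pearson correlation over 18 mice of the mean deviation over the 3 tissues, which describes shared levels and carries no test. For Vps16 the genes most like it were Itpa (0.97), Mrps26 (-0.88), a mitochondrial ribosomal protein, and Atrn (-0.85), and Itpa had the same partners. Clic4 resembled its neighbour Srrm1 (0.92), a splicing factor 1 gene away, and Rsrp1 (0.87), 3 genes away. B4galt3 A_55_P2184364 resembled Ppox (0.93), an enzyme of haem synthesis 1 gene away, and Cfap126 (0.89), 10 genes away. Gaa resembled Rufy2 (0.86), on another chromosome, and Slc26a11 (0.86), an anion transporter 4 genes away, and Trim12a A_52_P267391 resembled Trim34a (0.98) in the same gene cluster. The genes most like the other members lay elsewhere, namely Rpp40 (-0.93) for Ap5s1, Rwdd4a (0.83) for Tomm22, Tec (0.88) for Serpina3f A_55_P2142226 and Lemd2 (0.88) for Thumpd1 A_55_P1995698.

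Within 25 protein-coding genes on each side, a correlation of at least 0.8 in size was reached by 4 of 49 probes for Vps16 (8.16%, against 0.0146% of probes for genes on other chromosomes), 5 of 45 for Itpa (11.1% against 0.0659%) and 3 of 34 for B4galt3 A_55_P2184364 (8.82% against 0.206%). It was reached by 2 of 45 for Clic4 (4.44% against 0.0144%), 2 of 44 for Ap5s1 (4.55% against 0.768%), 1 of 6 for Trim12a A_52_P267391 (16.7% against 0.0219%), 1 of 54 for Gaa (1.85% against 0.0958%) and 1 of 44 for Tomm22 (2.27% against 0.0350%). No neighbour of Serpina3f (0 of 26) or of Thumpd1 A_55_P1995698 (0 of 32) reached it. Itpa is itself counted for Vps16 and Vps16 for Itpa, and both were chosen as members by the same measure. The correlations include the lung and liver deviations that chose the members, so these shares are description and carry no test. For Ap5s1 the neighbours were Mavs (0.88), an adaptor of antiviral signalling, and Rnf24 (-0.83). Without the 2 farthest mice, Atrn and Nop56 fell below 0.8 in size for Vps16 (-0.72 and 0.73) and Itpa (-0.78 and 0.79). So did Cfap126 (0.65) and Pcp4l1 (-0.77) for B4galt3, Rsrp1 (0.78) for Clic4 and Mief1 (0.70) for Tomm22. Mrps26 for Vps16 (-0.84), Srrm1 for Clic4 (0.87), Ppox for B4galt3 (0.89) and Trim34a for Trim12a (0.97) stayed past it. At a limit of 0.7, Gaa had 1.85%, against 1.39% on other chromosomes.

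**Figure D4:**
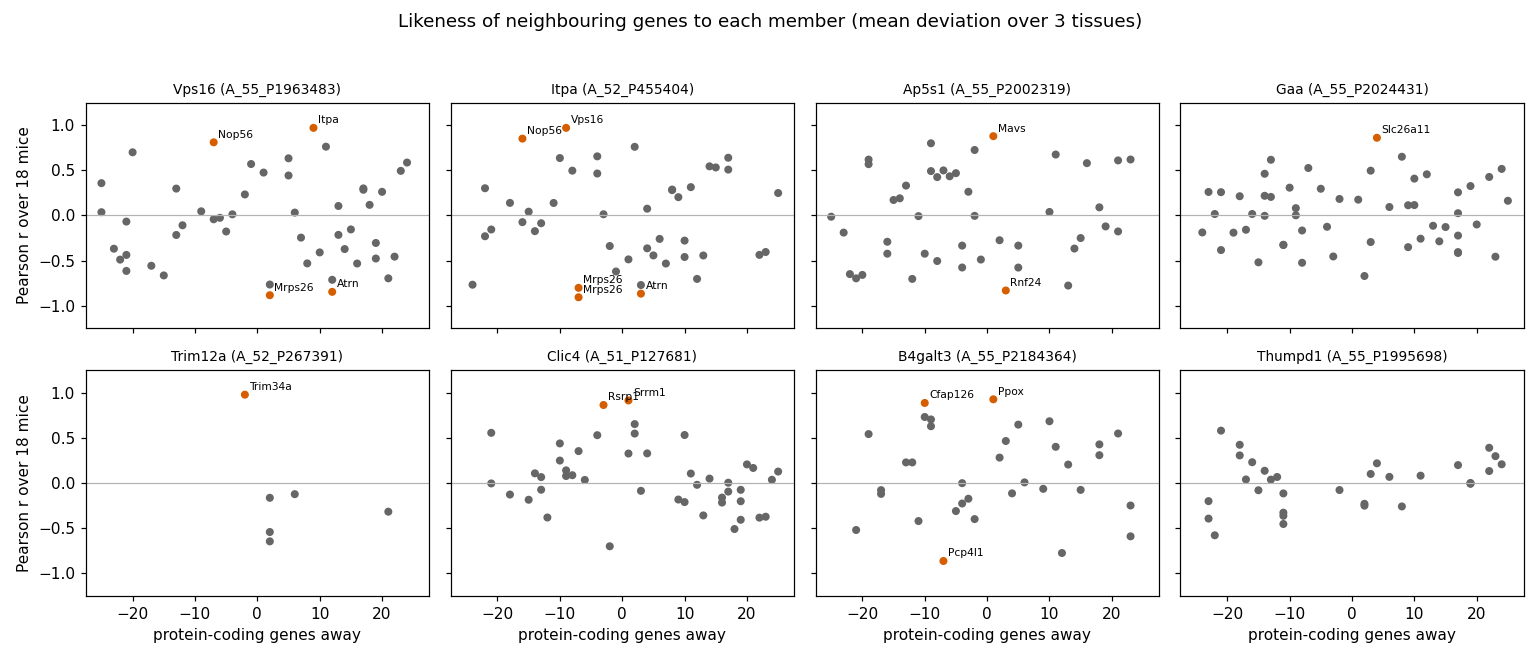
Pearson correlation over 18 mice with each member (y axis) against distance in protein-coding genes (x axis, up to 25 on each side), with orange points at 0.8 or more in size. Itpa stands at 0.97 beside Vps16 and Srrm1 at 0.92 beside Clic4, and no point of Thumpd1 reaches 0.8.

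Genes that work with the members were read from 10 lists drawn up around their roles. Of 66 genes tested (85 probes), 0 had a forestomach slope above 0 past the limit, where 0.251% of all probes did. At an unadjusted p of 0.05, 5 of the 85 probes passed against 4.94% of all probes, and the median slope over all probes was 0.076. Median slopes were 0.0068 for the AP-5 complex, -0.011 for the HOPS and CORVET tethering complexes, -0.41 for lysosomal glycosidases, -0.41 for the mitochondrial outer membrane translocase and -0.87 for the 4 CLIC family genes. They were 0.10 for the Serpina3 cluster, 0.15 for beta-1,4-galactosyltransferases, 0.17 for nucleotide pool enzymes, 0.24 for the Trim5 cluster and 0.34 for THUMP domain and tRNA modification genes. None passed both limits of the dose test in any tissue and dose.

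Dose was tested next, since chrysene was the study's treatment. No member probe passed both an adjusted p of at most 0.05 and a 1.5-fold change in any of the 9 contrasts with D0 (limma). Of all probes 0.127% passed in lung at D3, 0.00726% in forestomach at D3 and 0% in the other 7 contrasts. At the unadjusted limit of 0.05, limma found 2, 2 and 2 of 16 member probes in lung at D1, D2 and D3, where 5.88%, 6.12% and 16.2% of all probes passed. In liver 2, 0 and 1 of 16 passed (all probes 3.6%, 3.78% and 4.77%), and in forestomach 1, 3 and 3 of 15 (4.17%, 7.53% and 9.23%). The Fs test on the same values also found 0 member probes past both limits. The columns of a slide followed the order of the dose groups in 50 of 56 arrays, so column and dose cannot be told apart in most of them.

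Serpina3f A_55_P2142226 differed from D0 in lung by 2.97 ± 1.05 at D3 (SE, log2, adjusted p = 0.202) and 2.30 at D1. In liver 1 of 5 D0 arrays was well above background, against 5 of 5 at D1 and D3, so no size is given there. All 5 D3 mice were high in lung, but so was mouse 5 of D0 (4.18), the highest of all, and mouse 9 of D1 was as low as the controls (-1.01). Mice 13 and 15 of D2 were low (-1.13 and -1.07), so the groups overlapped. Tomm22 was 0.85 lower in forestomach at D1 (-0.85 ± 0.26, adjusted p = 1.00), and Trim12a A_52_P267391 was not well above background in any of the 3 D2 lung arrays (adjusted p = 0.725 against D0). No D3 effect of a member differed between tissues at an adjusted p of 0.05 (all probes 0% between lung and liver, 0.758% between lung and forestomach and 0.0806% between forestomach and liver, with a 1.5-fold limit), the lowest being 0.0804 for Thumpd1 A_55_P1985895 between lung and forestomach. That fit did not pair the tissues of a mouse, and these effects were not examined in a fit with the mouse as a block. The lack of a call is therefore not read as equal effects.

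**Figure D5:**
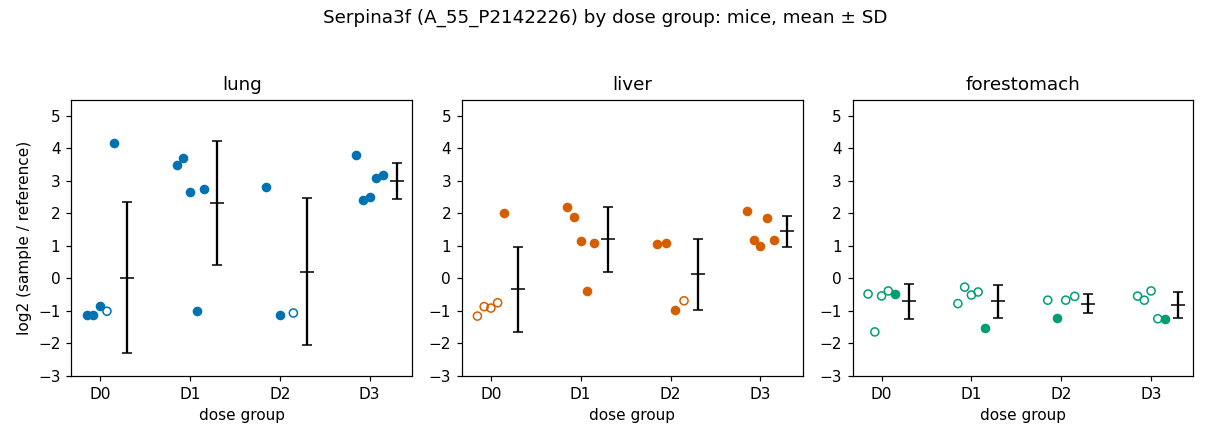
Serpina3f log2 ratio (y axis) by dose group (x axis) in lung, liver and forestomach, where points are mice, open points were not well above background and bars give the mean ± SD. Mouse 5 of D0 at 4.18 lies above all D3 mice in lung.

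Some of the member probes also differed in level between tissues. Of 16 probes, 6 passed both limits between lung and liver, 9 between lung and forestomach and 6 between forestomach and liver, where 46.7%, 36.6% and 41.5% of all probes did. Both counts with forestomach include Serpina3f A_55_P2104975 and A_55_P2142226, well above background on 0 and 4 of 19 forestomach arrays. The count for lung and forestomach also includes Trim12a A_55_P2064659, on 3 of 19. For these probes the difference is one from the floor of the array. Clic4 A_51_P127681 had means of 0.90 ± 0.86 (SD, n = 18) in lung, -0.96 ± 0.75 (n = 19) in forestomach and -1.95 ± 0.52 (n = 19) in liver, and lung exceeded liver by 2.85 ± 0.24 (SE, log2, adjusted p = 1.5e-15) and forestomach by 1.85 ± 0.24 (adjusted p = 1.2e-09). Under median centring these were 3.87 and 3.99, while its difference of 0.99 between forestomach and liver turned to -0.13. The dimmer Clic4 probe A_55_P2021530 stayed below the 1.5-fold limit against both tissues, with lung above liver by 0.31 ± 0.070. In forestomach that probe was well above background on 8 of 19 arrays. B4galt3 was higher in lung on both probes, with differences on A_55_P2137203 of 1.16 ± 0.087 over liver and 1.08 ± 0.087 over forestomach, which became 2.37 and 3.23 under median centring. Gaa A_55_P2024431 lay 0.75 ± 0.23 higher in lung than in forestomach (2.84 under median centring), and Serpina3f A_55_P2142226 read higher in lung than in forestomach, where 4 of 19 arrays were well above background, so that no size is given.

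Ap5s1 was highest in liver, its lung ratios differing from liver by -1.62 ± 0.17 and its forestomach ratios by -1.42 ± 0.17. The dim Gaa probe A_55_P2024439 read higher in liver than in lung, with lung differing from liver by -1.04 ± 0.094 (adjusted p = 2.4e-14). The brighter Gaa probe A_55_P2024431 did not pass between lung and liver (-0.055 ± 0.23, adjusted p = 0.827), so the 2 probes of Gaa disagreed there. The dim probe was well above background on only 7 of 19 forestomach arrays, so no size is given for it against forestomach. Under median centring the lung to liver difference of Ap5s1 was -0.20 and no longer passed, and that of Gaa A_55_P2024439 turned to 0.21. That centring moved the median of all probes by 0.93 between lung and liver and by 1.21 between lung and forestomach, and it turned the difference of Itpa between lung and forestomach from -0.67 to 1.68 and that of Tomm22 between forestomach and liver from 0.81 to -0.21. Since the 3 tissues came from the same animals, the fit was repeated with the mouse as a replicate block, which pairs the arrays, and 8, 10 and 6 probes then passed, against 46.7%, 36.5% and 41.5% of all probes.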

How the data were processed

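RNA from lung, liver and forestomach was hybridised to 2-colour Agilent mouse arrays. The authors scanned the arrays, extracted the spots with Feature Extraction 10.7.3.1, per the file headers, and deposited median Cy5 and Cy3 intensities with flags for each spot. The deposited log2 ratios of sample over reference are the authors' LOWESS-normalised values, in which background was not subtracted; these values were used here as given. Control spots were left out, spots of a probe were averaged, and 26413 of 55681 probes were named through RefSeq accessions (GRCm38.p6 table). The scanner's design uses another build, so gene coordinates were not printed.

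The members and gene lists were chosen with earlier results of these data known. Fits used limma 3.58.1 in R 4.3.3 with Benjamini-Hochberg adjustment, on probes well above background on at least 3 arrays of a tissue (of either tissue, for differences between tissues). Calls of dose and tissue differences needed an adjusted p of at most 0.05 and a 1.5-fold change. Named genes were the members and, for each, the genes most correlated over 18 mice. The tissues of a mouse come from 1 animal, so mouse numbers pair the arrays; over all probes the median correlation of deviations within a mouse was 0.126 between lung and liver, 0.018 between lung and forestomach and 0.062 between liver and forestomach. Alternatives were loess or median centring from the scanner files, normexp with an offset of 50, no filter on dim probes, the slide as a covariate, lung or liver alone as predictor, the mouse as a block, the Fs statistic with 100 permutations and each mouse left out. On simulated data the slope test recovered 76% of 200 probes whose mouse values had an SD of 0.5 and 98.5% at an SD of 1. Of the unchanged probes, 7 and 9 were called. The simulated noise was independent between arrays, without slide effects or a background floor, and each mouse value was equal in all tissues. These shares check the code and do not give the power in these data. The number of arrays limits the precision.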

Additional observations from a re-analysis of the deposited data

Results flagged for a closer look

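Within 176 combinations of probe, tissue and dose group, 23 values stood apart from the rest of their group by Dixon's test at the 95% level. Chance alone sets a value apart in about 5% of groups of unselected values. The members were chosen for separate levels of mice in lung and liver, where 17 of the 23 values lie, so the values are a description and nothing is read from their number.

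For Vps16, mouse 1 read -4.57 in D0 lung, and mouse 10 read -4.71 in D1 lung and -4.91 in D1 forestomach. Itpa read -1.81 in D1 forestomach for mouse 10. For Trim12a A_52_P267391, mouse 5 read -0.60 in D0 lung, where the others lay between 3.37 and 4.52, and mouse 11 read 1.79 in D2 liver.

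For Thumpd1 A_55_P1995698, mouse 4 read -0.15 in D0 lung, and mouse 16 read -3.66, -2.16 and -1.52 in D3 lung, liver and forestomach. Tomm22 read -1.10 in D1 liver for mouse 8, where the other mice lay between -1.23 and -1.20, so the gap was small. It read -0.16 in D2 liver for mouse 15, and -0.29 in D3 liver and 0.72 in D3 lung for mouse 18.

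For Clic4 A_51_P127681, mouse 8 read 2.13 in D1 lung and -1.20 in D1 liver, and mouse 20 read -2.21 in D3 liver. Serpina3f A_55_P2142226 read 4.18 in D0 lung and 2.00 in D0 liver for mouse 5, -1.01 in D1 lung for mouse 9 and -1.65 in D0 forestomach for mouse 2. The dim probe A_55_P2024439 of Gaa read -1.31 in D1 forestomach for mouse 10 and -1.30 in D2 forestomach for mouse 12.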

How the results depend on the processing

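The count of genes called in forestomach by their brightest probe (5) and of member probes called (6) did not change with loess or normexp from the scanner files, without the filter on dim probes, or with lung or liver alone as predictor. The counts were 0 and 0 under median centring and 2 and 3 with the slide as a covariate, and lay between 4 and 6 and between 5 and 7 when each mouse was left out. Under median centring the slope turned to -0.64 for Tomm22, -1.04 for Clic4 A_55_P2021530, -0.020 for Gaa A_55_P2024431, 0.24 for Serpina3f A_55_P2142226 and -1.68 for B4galt3 A_55_P2184364. Without passing, it went from 0.35 to 1.56 for Ap5s1, from 0.18 to 1.13 for Thumpd1 A_55_P1985895 and from 0.66 to 0.33 for Gaa A_55_P2024439. With the slide the slope turned to -1.58 for B4galt3 A_55_P2137203 and 0.18 for Serpina3f A_55_P2142226, and with lung alone to -0.076 for Thumpd1 A_55_P1985895 and -0.63 for B4galt3 A_55_P2137203. Leaving out each mouse gave -0.070 to 0.54 for Thumpd1 A_55_P1985895, -0.58 to 1.10 for B4galt3 A_55_P2137203 and -0.10 to 0.010 for Serpina3f A_55_P2142226. No member probe passed both dose limits under any alternative run. Between tissues, median centring raised the probes past both limits from 6 to 10 for lung against liver (61.5% of all probes, against 46.7%) and from 9 to 14 for lung against forestomach (65.8%, against 36.6%). For forestomach against liver 7 passed in place of 6 (37.7% of all probes, against 41.5%), and Clic4 A_51_P127681 and Tomm22 no longer did. Serpina3f A_55_P2104975 no longer did either, but it was not well above background on any of 19 forestomach arrays, so no size is given. Counts with forestomach, here and with the mouse as a block, include Serpina3f probes near background there. The same centring turned Gaa A_55_P2024439 (lung minus liver) to 0.21, Itpa and Thumpd1 A_55_P1995698 (lung minus forestomach) to 1.68 and 0.84, and Clic4 A_51_P127681 and Tomm22 (forestomach minus liver) to -0.13 and -0.21. With the mouse as a replicate block, 8, 10 and 6 probes passed for lung against liver, lung against forestomach and forestomach against liver, where 46.7%, 36.5% and 41.5% of all probes did. The cause of these changes was not tested. Signals near background limit Serpina3f in forestomach, its low values in liver, and the low values of Trim12a and Thumpd1.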
